A study of Homo sapiens with 6 samples.

Results

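Laminin chains were taken as the genes named LAMA1, LAMA3, LAMA4, LAMA5, LAMB1, LAMB2, LAMB3, LAMC1 and LAMC3, a set given by gene name, and these were 9 of the 20811 genes in the expression table. The table also lists LAMA2, with 2 reads in 1 library and none in the others, and LAMB4, with no read, and neither is among the 9. The RNA came from HuCCT1, an established cell line of human intrahepatic cholangiocarcinoma, which is a cancer of the bile ducts within the liver. HuCCT1/CD90+ cells carried a THY1-CMV-GFP lentivirus, in which THY1 encodes the surface glycoprotein CD90, and HuCCT1/CD90- cells carried Lenti-CMV-GFP-2A-Puro-Blank, so both lines had been through viral transduction. The study asked how the molecular profile of HuCCT1 cells differs with CD90, and the comparison here was HuCCT1/CD90+ against HuCCT1/CD90- with 3 libraries of each. How many transductions or clones stand behind each line is not given in the sources used here, and differences between the cell lines that do not come from THY1 cannot be told apart from differences that do. No source stated that the libraries came from separate cultures, and the p-values measure only the spread between these libraries, which may be technical.

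Laminins are large basement membrane proteins made of an α, a β and a γ chain wound together, and they are named by their chains. The genes of the α chains are LAMA, those of the β chains LAMB and those of the γ chains LAMC. Laminins built on LAMA5 or LAMA4 with LAMB1 or LAMB2 and LAMC1 are found in the basement membranes of epithelium and vessels, and LAMA3 and LAMB3 belong to the epithelial laminin of hemidesmosomes. Bile duct epithelium rests on such a membrane, and integrins and dystroglycan hold cells to it.

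Expression was measured with a targeted amplicon assay as RPM, the reads of a gene scaled to the total of its library, with 8587634 to 10551516 reads per library. THY1 showed 0, 1 and 0 reads across HuCCT1/CD90- replicates, while HuCCT1/CD90+ replicates held 46.6, 51.8 and 73.8 RPM, which is at least 179-fold higher when a floor of 3 reads per library is set for HuCCT1/CD90-. The cholangiocyte keratins KRT7 and KRT19 were abundant in both lines, with means of 3433 and 3228 RPM in HuCCT1/CD90- cells and of 3656 and 4146 RPM in HuCCT1/CD90+ cells, while ALB and TTR of hepatocytes and PTPRC of leucocytes had at most 1 read in any library. The hepatocyte gene APOA1 and the monocyte gene CD14 were read in HuCCT1/CD90- cells, at means of 3.24 and 80.8 RPM. Across all genes, limma on log2(RPM + 1) called 3939 of 20811 at a Benjamini-Hochberg adjusted p of at most 0.05, which is 18.9%, with 9.41% higher and 9.52% lower in HuCCT1/CD90+ cells. "Called" has this meaning throughout, adjusted p-values are from limma unless another tool is named, and all log2 fold changes are on the log2(RPM + 1) scale, HuCCT1/CD90+ over HuCCT1/CD90-.

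LAMB3 was 4.04-fold higher in HuCCT1/CD90+ cells, while LAMC1 was 2.21-fold lower and LAMA4 1.53-fold lower. These 3 of the 9 chains were called, 1 higher against 9.41% of all genes and 2 lower against 9.52%. The other 6 were not called: LAMA3 and LAMB2 were lower on average without overlap between the lines, LAMA5 and LAMB1 overlapped, and LAMA1 and LAMC3 had few or no reads. Of the 7 chains averaging 1 RPM or more, 6 had a log2 fold change below 0. The median over the 9 chains was -0.29, against 0 over all genes. With genes averaging under 1 RPM left out, 5 of the 7 chains that remained were called, 1 higher (20.6% of genes) and 4 lower (21.1%), where 41.7% of the 12062 genes were called. At the thresholds of the study's methods, a fold change of 1.5 and an unadjusted p of at most 0.05, 4 of the 9 chains passed beside 20.1% of all genes, with LAMB3 higher (10.1% of genes) and LAMA4, LAMB2 and LAMC1 lower (9.98%). In 6 of the 9 chains the libraries of the lines did not overlap, against 35.0% of all genes. The 6 include LAMA1, which had few reads, and all genes include 3805 with no read, which can only overlap.

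The number of chains called moved with the method, as did the share of all genes called. edgeR called 5 chains, LAMB3 higher and LAMA3, LAMA4, LAMB2 and LAMC1 lower, where it called 44.4% of genes (22.2% in each direction). DESeq2 called 6 chains beside 31.3% of genes, 2 higher (16.1%), LAMB3 and LAMA1, and 4 lower (15.3%). With a mean of 10 RPM as the minimum, 1 chain was higher (21.6% of genes) and 4 lower (20.6%), 42.2% of genes in all. The replicate block called 13.1% of genes, with 0 chains higher (6.72%) and 3 lower (6.4%), LAMA4, LAMB2 and LAMC1. Dividing each gene by the median fold of its 50 nearest expressed genes called 16.1% of genes, with LAMB3 higher (7.81%) and LAMC1 lower (8.24%).

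**Figure D1:**
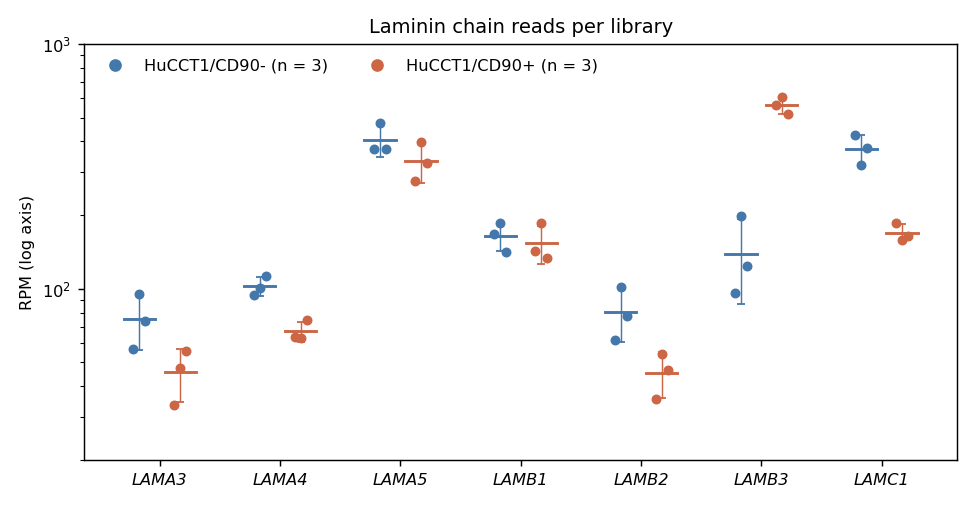
RPM on a log axis for the 7 laminin chains averaging 1 RPM or more in the 3 libraries of each line; points are libraries, bars are means and whiskers are SD (n = 3). LAMB3 sits between 96.4 and 198 RPM in HuCCT1/CD90- libraries and between 518 and 609 RPM in HuCCT1/CD90+ libraries, and LAMC1 lies lower in HuCCT1/CD90+ libraries without overlap.

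LAMB3, the β3 chain of the epithelial laminin, had 96.4, 198 and 123 RPM in HuCCT1/CD90- replicates 1, 2 and 3, and 562, 609 and 518 RPM in HuCCT1/CD90+ replicates 1, 2 and 3. Each HuCCT1/CD90+ library was above each HuCCT1/CD90- library, and replicate 2 was the highest in both lines. The means were 139 ± 52.7 and 563 ± 45.8 RPM (SD, n = 3), a log2 fold change of 2.07 (SE 0.29, 95% confidence interval 1.28 to 2.85, adjusted p = 0.015). Between libraries with the same replicate number it was 5.83, 3.08 and 4.20-fold higher. With the replicate number as a block the adjusted p was 0.0505, just past the threshold. Leaving out 1 library gave log2 fold changes of 1.84 to 2.35, and the adjusted p was 0.0581 to 0.0608 without HuCCT1/CD90- replicate 3 or without any one of the HuCCT1/CD90+ libraries. In the count test of edgeR on recovered reads the adjusted p was 9.5e-08. LAMB3 lies on chromosome 1 at positions 209614870 to 209652466 on the minus strand (GENCODE release 29, GRCh38). The 50 nearest expressed genes had a median log2 fold change of -0.36, opposite in sign to that of LAMB3.

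LAMC1, the γ1 chain shared by most laminins, lies on chromosome 1 at 183023460 to 183145592 on the plus strand. It had 424, 321 and 376 RPM in HuCCT1/CD90- libraries and 186, 158 and 164 RPM in HuCCT1/CD90+ libraries. The lines were separated by a wide gap, and replicate 2 was the lowest in both. The means were 374 ± 51.7 and 169 ± 14.8 RPM, a log2 fold change of -1.13 (SE 0.13, 95% confidence interval -1.48 to -0.79, adjusted p = 0.0084). LAMC1 was called in each of the 6 fits that left out 1 library and with the replicate block (adjusted p = 0.021). Its 50 nearest expressed genes had a median log2 fold change of -0.35, and with that shift divided out LAMC1 stood at -0.78 (adjusted p = 0.024).

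LAMA3, the α3 chain that assembles with LAMB3, was not higher beside it. It lies on chromosome 18 at 23689443 to 23956222 on the plus strand. It had 57.0, 95.1 and 73.8 RPM in HuCCT1/CD90- libraries and 33.6, 47.6 and 55.9 RPM in HuCCT1/CD90+ libraries. All 3 HuCCT1/CD90+ libraries were below all 3 HuCCT1/CD90- libraries, with a gap of little more than 1 RPM. The means were 75.3 ± 19.1 and 45.7 ± 11.3 RPM, a log2 fold change of -0.71 (SE 0.28, 95% confidence interval -1.47 to 0.049, adjusted p = 0.18), so LAMA3 was not called. It was called lower when genes under 1 RPM were left out (adjusted p = 0.027) and by edgeR (0.0066) and DESeq2 (0.0039).

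LAMA4, the α4 chain known from vessel walls, mesenchyme and nerve, lies on chromosome 6 at 112108760 to 112254939 on the minus strand. It had 94.2, 100.6 and 112.6 RPM in HuCCT1/CD90- libraries and 63.6, 63.1 and 74.3 RPM in HuCCT1/CD90+ libraries. The libraries did not overlap. The log2 fold change was -0.61 (SE 0.10, 95% confidence interval -0.88 to -0.34, adjusted p = 0.022). Without 1 library its adjusted p ranged from 0.036 to 0.078, and it was not called without HuCCT1/CD90- replicate 2 or 3 or without HuCCT1/CD90+ replicate 1 or 2. The 50 nearest expressed genes on chromosome 6 centred on -0.49 (median log2 fold change), and with that shift divided out LAMA4 stood at -0.12 (adjusted p = 0.58).

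LAMA5, the α5 chain of most adult epithelial basement membranes, was the highest α chain in both lines and lies on chromosome 20 at 62307955 to 62367312 on the minus strand. It had 372, 476 and 371 RPM in HuCCT1/CD90- libraries and 275, 397 and 326 RPM in HuCCT1/CD90+ libraries. The lines overlapped, and the log2 fold change was -0.29 (SE 0.18, 95% confidence interval -0.78 to 0.20, adjusted p = 0.39). Between same-numbered libraries LAMA5 was 1.36, 1.20 and 1.14-fold lower in HuCCT1/CD90+ cells, and with the replicate block it was not called either (adjusted p = 0.125). LAMA1, the α1 chain typical of the embryo, from chromosome 18, had no read in any HuCCT1/CD90- library, and HuCCT1/CD90+ replicates gave 5, 1 and 8 reads. The HuCCT1/CD90+ mean was 0.507 ± 0.377 RPM with 1 of its libraries under the floor of 3 reads, so no fold is given, and LAMA1 was not called (adjusted p = 0.15). The adjusted p of LAMA1 was 0.020 in DESeq2 and 0.032 without HuCCT1/CD90+ replicate 2.

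LAMB2, a β chain of nerve, muscle and kidney laminins, lies on chromosome 3 at 49121114 to 49133118 on the minus strand. It had 62.0, 101.5 and 77.6 RPM in HuCCT1/CD90- libraries and 35.4, 54.4 and 46.7 RPM in HuCCT1/CD90+ libraries. Each HuCCT1/CD90+ library was below each HuCCT1/CD90- library. The means of 80.4 ± 19.9 and 45.5 ± 9.56 RPM gave a log2 fold change of -0.80 (SE 0.26, 95% confidence interval -1.48 to -0.12). The adjusted p was 0.11, and it was 0.024 with the replicate block, 0.011 without genes under 1 RPM, 0.0018 in edgeR and 0.00044 in DESeq2. The expression table also lists LAMB2P1, a pseudogene of LAMB2, and reads could be split between them, which was not tested.

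LAMB1, the β1 chain that joins LAMC1 in the most widespread laminins, showed no difference larger than the spread between libraries. The gene lies on chromosome 7 at 107923799 to 108003255 on the minus strand. It had 167, 185 and 142 RPM in HuCCT1/CD90- libraries and 143, 185 and 134 RPM in HuCCT1/CD90+ libraries. The lines overlapped, with replicate 2 highest in both. The log2 fold change was -0.10 (SE 0.17, 95% confidence interval -0.56 to 0.35, adjusted p = 0.84). Its 50 nearest expressed genes on chromosome 7 centred on 0.62 (median log2 fold change), and with that shift divided out LAMB1 stood at -0.72 (adjusted p = 0.060). LAMC3, the γ3 chain from chromosome 9, had no read in 5 libraries and 1 read in HuCCT1/CD90+ replicate 3, so it was at the floor in both lines and no fold is given.

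**Figure D2:**
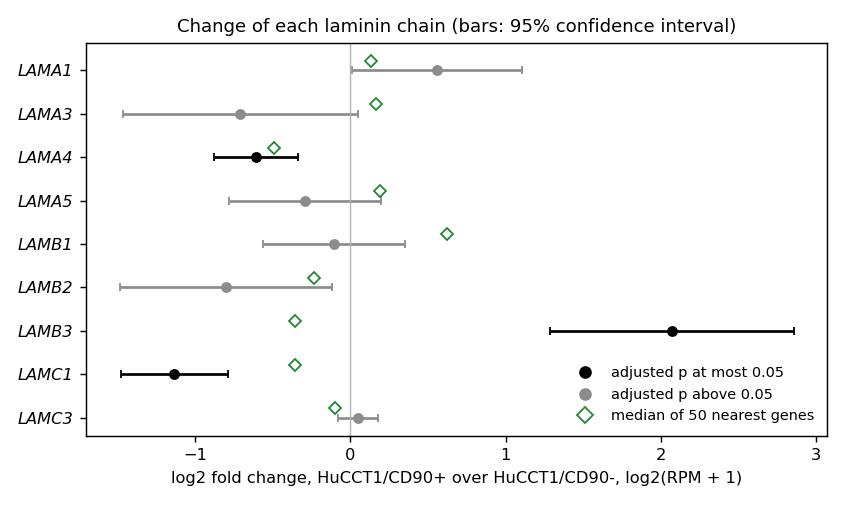
Log2 fold change of the 9 laminin chains on the log2(RPM + 1) scale with its 95% confidence interval; black chains were called, and green diamonds mark the median of the 50 nearest expressed genes. LAMB3 stands at 2.07 over neighbours at -0.36, and LAMA4 at -0.61 beside neighbours at -0.49.

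The make-up of the laminin reads differed by chain class. The 9 chains together held 1342 ± 117 RPM in HuCCT1/CD90- cells and 1378 ± 119 RPM in HuCCT1/CD90+ cells, a difference smaller than the SD. The β chains summed to 384 ± 87.3 and 762 ± 77.7 RPM, while the α chains summed to 584 ± 77.6 and 446 ± 68.3 RPM. LAMB3 held 29.6, 40.9 and 36.0% of β chain reads in HuCCT1/CD90- libraries and 75.9, 71.8 and 74.2% in HuCCT1/CD90+ libraries. These shares did not overlap, and the means differed by 38.5 percentage points (two-sided exact permutation p = 0.10, the smallest that 3 against 3 libraries can give). LAMB1 held 43.6 ± 6.87% and 20.1 ± 1.49% of β chain reads, and LAMB2 20.9 ± 1.80% and 5.96 ± 1.03%. Among α chains, LAMA3 held 12.8 ± 1.69% in HuCCT1/CD90- cells and 10.2 ± 1.75% in HuCCT1/CD90+ cells, a difference of -2.56 points (exact permutation p = 0.20). The shares are shares of reads and not of molecules, since amplicons differ in efficiency.

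**Figure D3:**
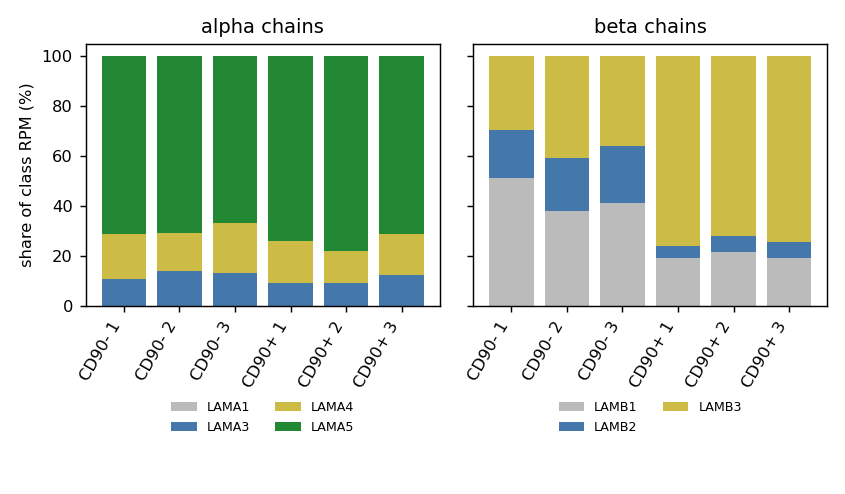
Percent of the summed RPM of the α chains and of the β chains held by each chain in each of the 6 libraries, stacked to 100. LAMB3 fills 71.8 to 75.9% of the β bars in HuCCT1/CD90+ libraries and 29.6 to 40.9% in HuCCT1/CD90- libraries.

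The order of the chains by RPM, a description since primer efficiency differs between genes, changed at the top. In HuCCT1/CD90- cells LAMA5 and LAMC1 came first with overlapping libraries, followed by LAMB1, LAMB3, LAMA4, LAMB2 and LAMA3, and from LAMB1 to LAMA3 each neighbouring pair overlapped. In HuCCT1/CD90+ cells LAMB3 came first with no overlap, followed by LAMA5, LAMC1, LAMB1, LAMA4, LAMA3 and LAMB2. There LAMC1 overlapped LAMB1 and LAMA3 overlapped LAMB2. LAMB3 over LAMC1 was 0.227 to 0.617 in HuCCT1/CD90- libraries and 3.02 to 3.86 in HuCCT1/CD90+ libraries.

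The promoters of LAMB3, LAMA3 and LAMC1 are shown because the first of these genes rose, the third fell, and LAMA3 is the assembly partner of LAMB3 that was not called. RefSeq (GRCh38.p14) gave promoter windows, 250 bases before to 50 after a transcription start, for 7 of the 9 chains and none for LAMA1 and LAMC3. Only the 250 bases before the start are printed, 5′ to 3′ on the gene's strand, and capitals mark motif matches on either strand. The LAMB3 window is the most downstream of 3 in the table, and the LAMA3 window starts inside the gene as GENCODE draws it.
LAMB3, chr1:209651375-209651624, minus strand: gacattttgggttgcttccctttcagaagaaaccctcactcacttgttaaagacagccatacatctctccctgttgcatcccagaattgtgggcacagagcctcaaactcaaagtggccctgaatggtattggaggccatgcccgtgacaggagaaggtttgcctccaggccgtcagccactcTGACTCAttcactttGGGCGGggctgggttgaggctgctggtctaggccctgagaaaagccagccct
LAMA3, chr18:23872770-23873019, plus strand: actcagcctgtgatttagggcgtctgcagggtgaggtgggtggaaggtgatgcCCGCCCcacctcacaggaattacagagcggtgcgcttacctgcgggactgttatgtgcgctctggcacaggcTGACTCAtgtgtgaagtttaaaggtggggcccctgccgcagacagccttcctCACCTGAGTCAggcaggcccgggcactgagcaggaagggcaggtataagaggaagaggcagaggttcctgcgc
LAMC1, chr1:183023170-183023419, plus strand: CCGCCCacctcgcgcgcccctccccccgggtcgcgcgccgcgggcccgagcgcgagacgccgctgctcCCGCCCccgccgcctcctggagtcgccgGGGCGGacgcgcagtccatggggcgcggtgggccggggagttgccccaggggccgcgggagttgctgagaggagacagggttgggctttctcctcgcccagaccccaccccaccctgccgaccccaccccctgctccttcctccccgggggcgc
The motifs searched were AP-1 (TGANTCA), grainyhead-like (AACCGGTT), the E-box of ZEB and SNAIL factors (CAGGTG), TEAD (GGAATG), SMAD (GTCTAGAC) and SP (GGGCGG), each on both strands. The LAMB3 window shown held an AP-1 match 67 bases before the start and an SP match 52 bases before it. The other LAMB3 windows, from starts further upstream, held no AP-1 match. Those windows overlap and share 1 SP match, 88 bases before the start of the most upstream and 184 before that of the other. The most upstream also held an E-box match 218 bases before its start. LAMA3 held AP-1 matches 125 and 69 bases before the start, the second overlapping an E-box match 73 bases before it, and an SP match 197 bases before it. LAMC1 held 3 SP matches, 250, 182 and 154 bases before the start, and no other motif of the 6. Counted by window, AP-1 matches were in 2 of the 9 windows of the 7 chains, 1 each of LAMB3 and LAMA3, beside 7.71% of all 35116 RefSeq windows and 6.25% of the 19815 windows of genes in the expression table. SP matches were in 8 of the 9 windows, with 1 LAMB3 site counted in 2 windows, and in 6 of the 7 chains. They were in 45.0% of all windows and 56.4% of those of measured genes. E-box matches were in 3 of the 9, beside 20.6% and 19.7%. Grainyhead-like, TEAD and SMAD matches were in none of the 9, beside 0.134%, 14.0% and 0.202% of all windows. The GC content of the 300-base window was 79% for LAMC1 and 53.7% for this LAMB3 window, against a median of 58.7% over all promoters.

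The genes that work beside the laminins moved in both directions. Of 21 basement membrane partners, 4 were called higher and 6 lower, or 47.6%, beside 18.9% of all genes, and 7 were at the floor in both lines. With the replicate block 3 partners were higher and 2 lower, where 13.1% of all genes were called. With genes under 1 RPM left out, 3 of 12 partners were higher and 6 lower, where 41.7% of genes were called. COL17A1, a hemidesmosome collagen that meets the epithelial laminin, rose from 53.2 ± 7.55 to 281 ± 14.6 RPM (adjusted p = 0.0012). COL4A4, a chain of the collagen IV network, rose from 4.45 ± 1.29 to 65.1 ± 19.6 RPM (adjusted p = 0.0043), and the calcium-binding protein SMOC1 rose from 0.394 to 14.1 RPM (adjusted p = 0.0019). COL7A1, the anchoring fibril collagen that holds this laminin to the tissue below, fell from 117 ± 34.9 to 19.5 ± 3.66 RPM (adjusted p = 0.0075). COL18A1, a basement membrane collagen, fell from 389 ± 33.2 to 88.7 ± 25.5 RPM (adjusted p = 0.0090), and COL4A6 fell from 12.3 to 3.24 RPM (adjusted p = 0.024, 0.076 with the replicate block). Both linkers between laminin and collagen IV, NID1 and NID2, were at the floor. The heparan sulfate proteoglycans were high and not called, with HSPG2 at 255 ± 91.1 and 173 ± 39.8 RPM and AGRN at 1367 ± 109 and 1020 ± 274 RPM.

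Of 14 laminin receptors, 2 were called higher and 3 lower, or 35.7% beside 18.9% of all genes (9.41% higher and 9.52% lower). With the replicate block 2 were higher and 2 lower, where 13.1% of all genes were called. With genes under 1 RPM left out, 3 of 13 receptors were higher and 3 lower, a share close to the 41.7% of genes called in that fit. The median of the receptors was -0.21 on the log2 scale. ITGA2, an integrin α chain that binds collagen and laminin, rose from 53.4 to 177 RPM (adjusted p = 0.0083), and CD151, a tetraspanin partner of laminin-binding integrins, rose from 365 to 648 RPM (adjusted p = 0.0042). DAG1, which encodes dystroglycan, fell from 389 to 219 RPM (adjusted p = 0.016, 0.064 with the replicate block). BCAM, an adhesion receptor for LAMA5, fell from 87.0 to 39.0 RPM (adjusted p = 0.010, 0.079 with the block), and RPSA, which encodes the ribosomal laminin receptor, fell from 4.28 to 1.54 RPM (adjusted p = 0.029). The chains of the main epithelial laminin integrins were not called. ITGA3 had 705 and 976 RPM, ITGA6 161 and 120 RPM (adjusted p = 0.17, 0.043 with the block), and ITGB4 698 ± 370 and 435 ± 292 RPM with a wide spread. The syndecan SDC4 had 203 and 236 RPM and was not called. RPSA has many pseudogenes that could share its reads.

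Of 12 proteases that cleave laminin chains, 0 were called higher and 3 lower, or 25%, beside 18.9% of all genes called in either direction and 9.52% lower. TLL1, a tolloid-like protease, fell from 20.9 to 5.94 RPM (adjusted p = 0.016). MMP14, a membrane-bound protease that cleaves laminin chains, fell from 325 ± 94.0 to 137 ± 11.1 RPM (adjusted p = 0.032, 0.078 with the replicate block). MMP3 was called lower close to the detection floor, from 0.295 to 0 RPM (0.059 with the block), and the block left 1 protease called lower, where it called 6.4% of all genes lower. With genes under 1 RPM left out, 2 of 6 proteases were higher and 2 lower, where 41.7% of genes were called. PLAU, the urokinase gene, had 238 and 328 RPM and was not called. Of 15 genes for the glycosylation that lets dystroglycan bind laminin, 0 were called higher and 3 lower, or 20%. Of all genes, 18.9% were called in either direction and 9.52% lower. With genes under 1 RPM left out, 0 of 12 were higher and 4 lower, where 41.7% of genes were called in either direction and 21.1% lower. POMGNT1 fell from 70.9 to 42.2 RPM (adjusted p = 0.0033), GTDC2, also called POMGNT2, from 49.3 to 29.2 RPM (adjusted p = 0.036, 0.069 with the block) and B3GALNT2 from 57.5 to 36.4 RPM (adjusted p = 0.029, 0.23 with the shift of its neighbouring genes divided out). DPM1 and DPM2, which help make the mannose donor, had 97.1 and 128 RPM and 126 and 150 RPM and were not called.

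**Figure D4:**
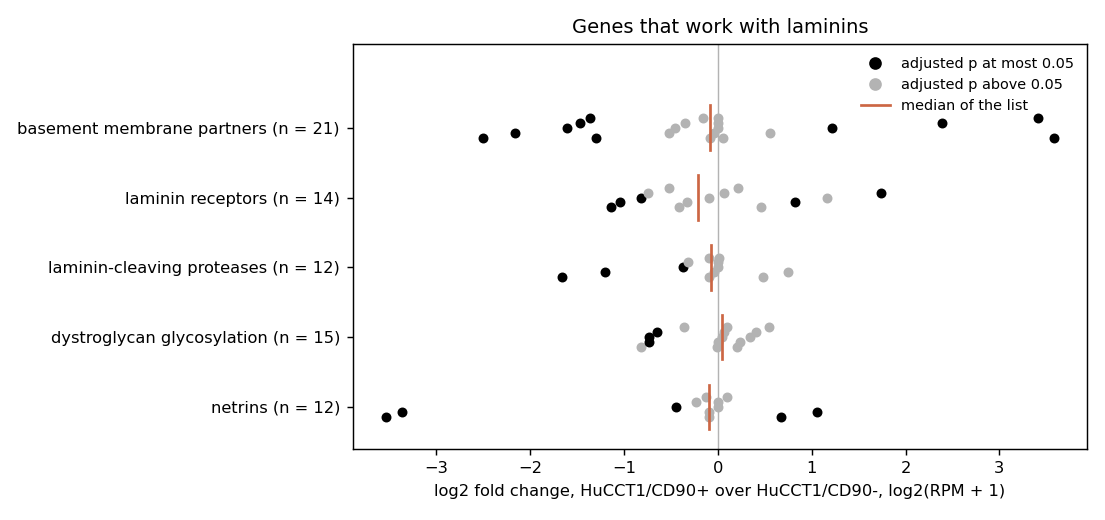
Log2 fold change of each gene of 5 lists, the basement membrane partners, laminin receptors, laminin-cleaving proteases, dystroglycan glycosylation genes and netrins; black points were called and the line is the list's median. The medians lie between -0.21 and 0.043, with called points on both sides among partners, receptors and netrins.

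The genes whose centred log2(RPM + 1) over the 6 libraries lay nearest to LAMB3, out of 8793 genes averaging 10 RPM or more, were MAPK13, VAV1 and ERBB3, with root mean square differences of 0.125, 0.150 and 0.153. MAPK13, a p38 kinase, had 35.3 ± 8.87 and 149 ± 14.0 RPM, and ERBB3, a receptor of the EGF receptor family, had 13.4 and 66.8 RPM. Nearest to LAMC1 were DEGS1, CTNNB1 and RHOBTB3, with differences of 0.0715, 0.0764 and 0.0797. CTNNB1, which encodes β-catenin, had 929 and 455 RPM.

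Some markers of other cell types also differed between the lines. The summed level of 6 fibroblast markers was 41.8 to 64.9 RPM in HuCCT1/CD90- libraries and 20.3 to 24.7 RPM in HuCCT1/CD90+ libraries, with 5 of the 6 called lower, beside 9.52% of all genes. The sum of 5 cholangiocyte markers was 6461 to 7336 and 7941 to 8835 RPM, with 3 called higher, beside 9.41% of all genes, and none lower. In each of the other 3 lists 1 of 3 markers was called lower and none higher. The sum of the endothelial markers was 14.5 to 23.2 and 0.643 to 1.51 RPM, carried by CDH5, which fell from 16.6 to 0.293 RPM. PECAM1 was not called, and VWF had no read in HuCCT1/CD90- libraries and 1, 3 and 4 reads in HuCCT1/CD90+ libraries, also not called. The sum of the leucocyte markers was 69.3 to 88.6 and 4.34 to 4.77 RPM, mostly from CD14, which was the marker called. The sum of the hepatocyte markers was 1.75 to 4.28 and 0 to 0.429 RPM, nearly all from APOA1, with TTR at 0 in every library. The part of other cell types in the laminin differences was not tested, and in RNA from whole cultures fewer cells of a type and less RNA per cell cannot be told apart.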

How the data were processed

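Total RNA of 6 HuCCT1 libraries, 3 per line, was profiled by targeted amplicons on an Ion S5 instrument. The authors deposited 1 table of RPM per gene, normalized to the reads of each library, and the submitters' processing notes name hg19 and the Transcriptome Analysis Console. The position of amplicons and the use of strand are not given in the sources used here, so reads of LAMC1 and LAMC1-AS1, and of LAMA5 and LAMA5-AS1, cannot be told apart. The table carries no coordinates. Positions and promoters are from GRCh38 and were used for order, distance and motifs only.

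Whole reads were recovered from the RPM steps, with 100% of values within 0.01 of a whole number. Depth was 9345680 to 10551516 reads in HuCCT1/CD90- and 8587634 to 9327650 in HuCCT1/CD90+ libraries, which puts the floor of 3 reads at 0.284 to 0.349 RPM. Floors cover counting error only, since the reads carry no molecular identifiers. Every pair of libraries differed beyond sampling noise. 3805 genes had no read.

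The 9 chains and the lists were chosen with earlier results of these data known. Groups came from the sample labels. limma 3.58.1 (R 4.3.3; lmFit, eBayes, two-sided) was fitted to log2(RPM + 1) of all genes without a filter, with Benjamini-Hochberg adjustment over all 20811. Alternatives were offsets of 0.1 and 5 RPM, minimum means of 1 and 10 RPM, median centring, quantile normalization, the moderated trend with robust variances, the replicate block, each library left out, edgeR 4.0.16 and DESeq2 1.42.0 on the recovered reads, and division by the median fold of 50 neighbouring genes averaging 10 RPM or more. Same-numbered libraries of the lines deviated together (r = 0.178 to 0.320 across genes, against -0.294 to 0.0706 for other pairs). Deviations were taken from the mean of each line, so positive same-numbered values push the other pairs toward negative ones. The replicate block treats the numbers as pairs, which comes from the data alone. The limma fit behind the calls has no block. The limma fit was also run on simulated data, with far fewer changed genes than were called here and the same dispersion for every gene. There the fit without a filter missed most changes of moderate size. The fit with a minimum mean of 1 RPM largely recovered them from 2-fold upward. How far this carries over to these data was not tested. Genes named are the 9 chains, THY1, the called members of each list (at most 6 by size of change) and members averaging 100 RPM or more, the 3 genes nearest to LAMB3 and to LAMC1, and markers. NID1, NID2 and LAMB2P1, outside this rule, were named after their values were seen. Some items of the table are not reported here.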

Additional observations from a re-analysis of the deposited data

How the results depend on the processing

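No tested value changed sign under the alternatives run. The LAMC1 call held in all of them, while those of LAMB3 (replicate block, left-out libraries) and LAMA4 (left-out libraries, neighbouring genes) did not. Of the 9 chains, 1 was called higher and 2 lower. The replicate block gave 0 higher and 3 lower, DESeq2 gave 2 higher, and the division by neighbouring genes gave 1 lower. Minimum means of 1 and 10 RPM, edgeR and DESeq2 each gave 4 lower. Leaving out 1 library gave 0 to 1 higher and 1 to 2 lower. Without HuCCT1/CD90+ replicate 2 the chain called higher was LAMA1 and not LAMB3. These counts stand beside the share of all genes called, which was 18.9% in the limma fit, 13.1% with the replicate block, 16.1% with neighbouring genes divided out, 41.7% and 42.2% with minimum means of 1 and 10 RPM, 44.4% in edgeR and 31.3% in DESeq2, and the list counts that follow are to be read against the same shares. Over all genes 3939 were called, 2197 to 2932 with 1 library left out and 2729 with the replicate block. A minimum of 10 RPM gave 3 basement membrane partners lower and the replicate block 2, with 3 to 5 lower when 1 library was left out. edgeR and DESeq2 each gave 4 receptors higher and 5 lower, and left-out libraries gave 1 to 3 lower. Minimum means of 1 and 10 RPM, edgeR and DESeq2 each gave 2 proteases higher, the replicate block gave 1 lower, and left-out libraries gave 0 to 1 higher and 0 to 3 lower. A minimum of 10 RPM, median centring, edgeR and DESeq2 each gave 1 dystroglycan gene higher and the neighbouring genes 1 lower, with 0 to 1 higher and 1 to 2 lower when 1 library was left out. Netrins called higher numbered 1 with an offset of 5 RPM, minimum means of 1 and 10 RPM, the robust trend, the replicate block, neighbouring genes and edgeR, and 0 to 1 when 1 library was left out; a minimum of 10 RPM gave 1 lower. The LAMB3 share of β chain reads differed by 47.0 points after division by neighbouring genes and by 35.5 to 41.2 points with 1 library left out. The LAMA3 share differed by -3.57 to -1.86 points with 1 library left out. Minimum means leave fewer genes to test and also change the variance estimate that limma shares across genes. The cause of the shifts was not tested. With 3 libraries a line, chains under 1 RPM, LAMA1 and LAMC3, were not measurable beyond a few reads.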

Other observations

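Netrins share the laminin-type amino-terminal domain, and a small set of receptors binds them. Of 12 netrin and netrin receptor genes, 2 were called higher and 3 lower in HuCCT1/CD90+ cells, or 41.7% beside 18.9% of all genes, while 7 were not called, of which 5 were at the floor in both lines. With the replicate block 1 was higher and 3 lower, where 13.1% of all genes were called, and with genes under 1 RPM left out 1 of 4 was higher and 2 lower, where 41.7% were called. NTN4, the netrin that binds laminin γ1 chains, rose from 102 ± 11.5 to 163 ± 6.94 RPM (SD, n = 3; limma adjusted p = 0.014). NTNG2, a membrane-anchored netrin, fell from 16.7 to 0.479 RPM (adjusted p = 0.0028), and the netrin receptor UNC5B fell from 29.2 to 1.99 RPM (adjusted p = 0.0075). UNC5A was at the floor in HuCCT1/CD90- cells and had 1.34 RPM in HuCCT1/CD90+ cells, at least 4.17-fold higher (adjusted p = 0.048, 0.067 with the replicate block). UNC5C was called lower close to the floor, from 0.366 to 0 RPM (adjusted p = 0.0046, 0.037 with the block).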
